A study of Mus musculus with 8 samples.

Results

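The heat shock proteins and small chaperones described here are 10 genes, Hspa1a, Hspa1b, Hspa8, Hsp90aa1, Hsp90ab1, Hspb1, Hspb6, Hspb7, Cryab and Bag3, chosen by name from the 55487 genes of the deposited expression values. Their mRNA was measured by RNA-seq in skeletal muscle of 8 male C57BL/6J mice aged 10 weeks, the 1 group of the series. Both hindlimbs of every mouse were immobilized with casts for 8 days, a model of disuse atrophy. During that time each mouse received K14Q MOTS-c, a naturally occurring variant of the mitochondria-encoded peptide MOTS-c, injected into the peritoneum 2 times per day at a total of 15 mg/kg/day. The mice were sequenced so that gene expression under the variant could be set against that under WT MOTS-c. Libraries of untreated, non-immobilized and WT MOTS-c-treated mice were not analysed here, so no level below is the effect of the cast or of the peptide. The sample labels name vastus lateralis muscle, whereas the study's design text and methods name gastrocnemius.

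Libraries held 23985356 to 33012497 counts, and all 10 genes had at least 10 counts in every mouse, as did 15135 genes in all. Values are normalized counts, which are reads per gene divided by the authors' size factor of the library (0.906 to 1.20). Levels are compared between genes only as normalized counts per kilobase of annotated exon. All 8 skeletal muscle marker genes were present, with a summed level between 1764971 normalized counts in mouse 3 and 3521172 in mouse 1. The lists for slow fibres, fibroblasts, blood, macrophages, smooth muscle and endothelium had no gene at 0 either. In a piece of whole muscle, fewer cells of a type and less RNA per cell cannot be told apart.

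Chaperones bind proteins that are unfolded or newly made. HSP70 proteins (Hspa1a, Hspa1b, Hspa8) and HSP90 proteins (Hsp90aa1, Hsp90ab1) use ATP to fold their clients, and each family has a constitutive and a stress-inducible form. The small heat shock proteins Hspb1, Hspb6, Hspb7 and Cryab (alphaB-crystallin) need no ATP and hold unfolding proteins in a soluble state. In striated muscle they sit on sarcomere and cytoskeletal proteins such as desmin and filamin C. Bag3 is a co-chaperone that couples HSP70 to small heat shock proteins and directs damaged filamin to autophagy at the Z-disc. The inducible genes are activated by heat shock factors, which bind heat shock elements, that is inverted repeats of the unit GAA.

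Promoter sequences from RefSeq (GRCm38.p6), covering 250 bases before and 50 bases after the start of transcription, were given for 6 of the 10 genes, Hspa1a, Hspa1b, Hspb1, Hspb6, Hspb7 and Bag3, with 7 promoters because Hspb6 had 2 starts. The 250 bases before the start are printed for the inducible pair and for Hspb1, since these show the element and how alike the pair is. The region is chr17:34972157-34972406 on the minus strand for Hspa1a, chr17:34959239-34959488 on the minus strand for Hspa1b and chr5:135887669-135887918 on the plus strand for Hspb1. Sequences read 5′ to 3′ along each gene's own strand, and capitals mark a match to GAANNTTC.
Hspa1a: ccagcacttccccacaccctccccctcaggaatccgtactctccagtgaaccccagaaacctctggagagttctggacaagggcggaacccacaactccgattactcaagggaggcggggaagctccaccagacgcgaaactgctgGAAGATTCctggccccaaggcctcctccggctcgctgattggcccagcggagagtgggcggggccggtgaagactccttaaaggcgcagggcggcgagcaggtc
Hspa1b: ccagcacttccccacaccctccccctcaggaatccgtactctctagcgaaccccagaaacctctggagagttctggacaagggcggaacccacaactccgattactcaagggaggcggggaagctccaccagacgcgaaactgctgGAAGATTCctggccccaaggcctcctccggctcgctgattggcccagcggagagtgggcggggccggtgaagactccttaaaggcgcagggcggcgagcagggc
Hspb1: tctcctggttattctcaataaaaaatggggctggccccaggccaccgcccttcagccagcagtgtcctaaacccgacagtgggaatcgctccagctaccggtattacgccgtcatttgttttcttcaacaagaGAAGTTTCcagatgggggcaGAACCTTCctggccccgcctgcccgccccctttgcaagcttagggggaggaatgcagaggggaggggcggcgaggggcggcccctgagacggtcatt

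GAANNTTC and TTCNNGAA are the possible pairs of inverted GAA units, and each reads the same on both strands. GAANNTTC was found in promoters of 5 of the 6 genes. It lay 104 bases before the start of both Hspa1a and Hspa1b, as GAAGATTC. In Hspb1 it lay 117 bases before the start as GAAGTTTC and 97 bases before as GAACCTTC. The letters GAAGTTTC also stood 120 bases before the second start of Hspb6 and 42 bases after the start of Bag3. The Hspb7 promoter and the first start of Hspb6 held no match. No promoter of these genes held TTCNNGAA or a triple of units, GAANNTTC followed at once by NNGAA. Of 32851 mouse promoters of the same length, 7.86% held GAANNTTC, 8.52% TTCNNGAA, 15.1% at least 1 of these pairs and 0.603% the triple. A CCAAT box, searched on both strands and held by 37.4% of all promoters, stood in the Hspa1a and Hspa1b promoters and in the first of Hspb6. The TATAAA box (13.6% of all promoters) was matched only at the second start of Hspb6 among the 7. A match is a description of the letters and does not show that a factor bound there.

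The promoters of Hspa1a and Hspa1b differed at 4 of 300 positions, C44T, T47C, T249G and C276T, where the Hspa1a base comes first and positions count from 1 at the 5′ end. They also share transcribed sequence, as 48.6% of the 100-base windows of Hspa1a and 49.9% of those of Hspa1b also occur in another annotated gene. The sources used here do not state how reads that map to several genes, or the strand of a read, were treated. The split between the pair is therefore uncertain, and their sum is given beside each gene.

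The inducible HSP70 genes were the least abundant of the 10. Hspa1a (GRCm38 chr17:34969190-34972156, minus strand) had a lowest value of 118 normalized counts in mouse 8, a median of 189 and a highest value of 264 in mouse 3, with a mean of 191 ± 54.3 (SD, n = 8). Hspa1b (chr17:34956436-34959238, minus strand, 9951 bases away) ran from 84.3 in mouse 8 through a median of 162 to 227 in mouse 5, with a mean of 165 ± 52.5. Mouse 8 was lowest for both, and mice 1, 3 and 5 were the highest 3 for both. The sum of the pair had a mean of 356 ± 106 and spanned 2.40-fold, from 203 in mouse 8 to 486 in mouse 3. Hspa1a took 53.5% of the pair's 2874 counts (exact binomial 95% interval 51.7 to 55.4%, counting error only). Its share was highest in mouse 8, at 58.4% of 185 counts (50.9 to 65.6%). Of Hspa1a's exon bases, 564 (19.0%) also belong to the opposite-strand gene Gm20481, whose mean was 0.247 normalized counts.

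Hspa8, the constitutive HSP70 that serves folding in unstressed cells, was far more abundant. It lies at chr9:40800984-40810087 on the plus strand, and its values ran from 15026 normalized counts in mouse 2 through a median of 20917 to 23085 in mouse 4, with a mean of 19882 ± 2621. Mice 1 and 2 were the lowest. Per kilobase it stood 38.8-fold above the summed inducible pair, between 25.2-fold in mouse 1 and 69.4-fold in mouse 8, a mean log2 ratio of 5.28 ± 0.50 (exact sign-flip permutation test over 8 mice, two-sided, adjusted p = 0.00977). Of its 100-base windows, 31.6% also occur in other genes, mainly the pseudogene Gm15459.

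Hsp90ab1, the constitutive HSP90, was the most abundant of the 10. It lies at chr17:45567775-45573271 on the minus strand and took 0.181% of all counts. Its normalized counts ran from 45367 in mouse 1 through a median of 53633 to 59204 in mouse 4, with a mean of 53140.2 ± 4849.6. Hsp90aa1 (chr12:110690605-110702728, minus strand) encodes the inducible HSP90. Its values ran from 1271 in mouse 1 through a median of 1394 to 1762 in mouse 8, with a mean of 1455 ± 169. The orders of the mice thus differed within the family, since mouse 8 had the most Hsp90aa1 and an Hsp90ab1 value near the median. Per kilobase Hsp90ab1 exceeded Hsp90aa1 by 48.0-fold in the mean and in 8 of 8 mice (log2 ratio of Hsp90aa1 to Hsp90ab1 -5.58 ± 0.17, exact permutation test, adjusted p = 0.00977). In another setting the length was the longest transcript less the windows shared with other genes, which are 47.5% of Hsp90aa1. The counts were left unchanged, and the log2 ratio was -4.64.

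The small heat shock proteins were abundant and varied widely between mice. Hspb6 (chr7:30552178-30555443, plus strand) is also called HSP20 and is enriched in muscle. Its normalized counts ran from 7985 in mouse 4 through a median of 11853 to 19825 in mouse 5, with a mean of 13014 ± 3864. Hspb7, the cardiovascular heat shock protein that binds filamin C, lies at chr4:141420779-141425311 on the plus strand. It ran from 8969 in mouse 8 through a median of 12277 to 26256 in mouse 5, with a mean of 13655 ± 5626. Mouse 5 stood alone, as the next highest mouse had 15469. Without mouse 5 the coefficient of variation (CV, the SD as a percentage of the mean) of Hspb7 was 21.8% instead of 41.2%.

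Cryab, which binds desmin and titin, had from 4075 normalized counts in mouse 2 through a median of 6481 to 9165 in mouse 5, with a mean of 6383 ± 1897. It lies at chr9:50751325-50756636 on the plus strand. Mice 2 and 4 were lowest and mice 5 and 7 highest. It shares 252 exon bases (17.0% of its own) with Hspb2 on the opposite strand, so reads in that stretch cannot be told apart if strand was not used. Hspb1 (HSP27 or, in mice, HSP25; chr5:135887919-135889563, plus strand) protects actin filaments. Its values ran from 1954 in mouse 1 through a median of 2839 to 3903 in mouse 5, with a mean of 2772 ± 689.7. Its windows overlapped the pseudogene Hsp25-ps1 for 42.7%. Bag3 (chr7:128523616-128546981, plus strand) had a mean of 2761 ± 515, from 2214 in mouse 6 through a median of 2584 to 3409.6 in mouse 5.

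**Figure D1:**
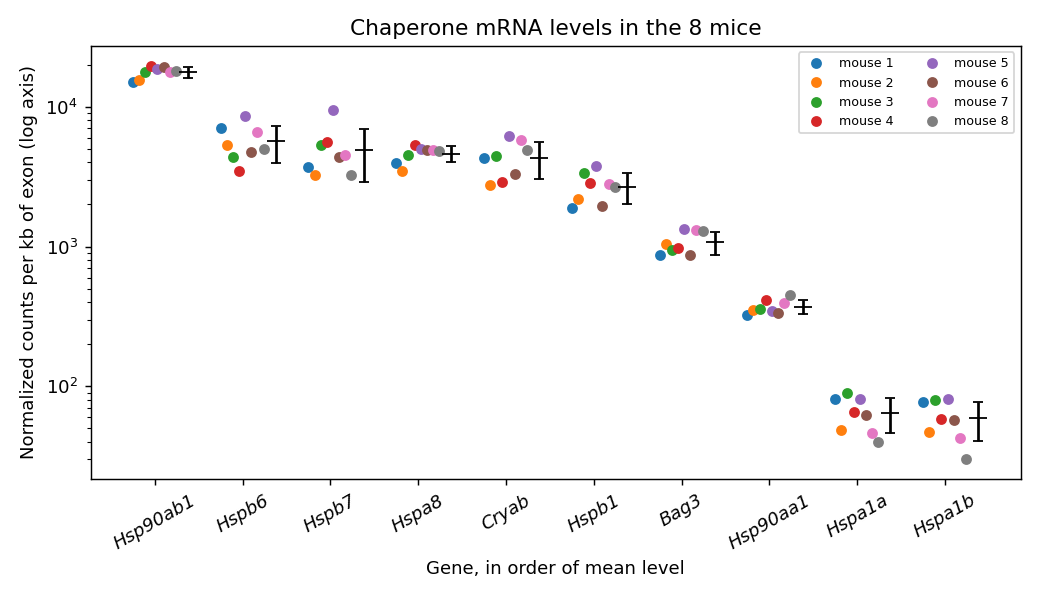
Level of each of the 10 genes in each mouse, in normalized counts per kilobase of exon on a log axis, with colours for the 8 mice and a bar for the mean ± SD. Hsp90ab1 lies highest at a mean of 17719, Hspa1a and Hspa1b lie lowest at 64.2 and 58.9, and the purple point of mouse 5 stands above the others for Hspb7.

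Per kilobase, the order of the means was Hsp90ab1 (17719 ± 1617 normalized counts per kilobase), Hspb6 (5661 ± 1681), Hspb7 (4931 ± 2032), Hspa8 (4623 ± 609), Cryab (4315 ± 1283), Hspb1 (2689 ± 669), Bag3 (1078 ± 201), Hsp90aa1 (370.1 ± 43.0), Hspa1a (64.2 ± 18.3) and Hspa1b (58.9 ± 18.7). Hsp90ab1 ranked 67th and Hspa1b 9113th of the 31046 genes that had a level. Neighbours were compared within mice with an exact sign-flip permutation test, two-sided and adjusted over the 9 comparisons. The order was taken from the same 8 mice, and the p-values do not allow for that choice. With 8 mice the smallest p this test can give is 0.00781.

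Hsp90ab1 exceeded Hspb6 by 3.24-fold in 8 of 8 mice. The 3 neighbouring pairs among the next 4 genes did not differ beyond their spread on this length, and pairs that are not neighbours were not tested. Hspb6 and Hspb7 differed by a log2 ratio of 0.23 (adjusted p = 0.382), Hspb7 and Hspa8 by 0.02 (adjusted p = 0.883) and Hspa8 and Cryab by 0.15 (adjusted p = 0.422), each by exact permutation. Below them every step passed the test with an adjusted p of 0.0117 (exact permutation): Cryab over Hspb1 by 1.58-fold, Hspb1 over Bag3 by 2.46-fold, Bag3 over Hsp90aa1 by 2.89-fold, Hsp90aa1 over Hspa1a by 5.95-fold and Hspa1a over Hspa1b by 1.10-fold. The length used decided some of these steps. With the longest transcript in place of all exons, Hspa8 exceeded Hspb7 (log2 ratio of Hspb7 to Hspa8 -0.43, adjusted p = 0.0402, exact permutation). In a further setting the windows shared with other genes were taken off the length of the longest transcript, while counts were left unchanged. Such a length is right only if no read in a shared window was counted, which is not known. On that length Hspa8 exceeded both Hspb7 and Cryab (adjusted p = 0.0117 for each, exact permutation). Cryab no longer separated from Hspb1 there (log2 ratio 0.12, adjusted p = 0.430, exact permutation). Hspb1 then stood 4.77-fold above Bag3, and Bag3 only 1.26-fold above Hsp90aa1. The last step rests on the uncertain split of near-identical genes.

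The HSP90 genes and Hspa8 had a narrower spread between mice than the small heat shock proteins and the inducible HSP70 pair. On the authors' size factors the CV was 9.13% for Hsp90ab1, 11.6% for Hsp90aa1 and 13.2% for Hspa8. On the same factors it was 18.7% for Bag3, 24.9% for Hspb1, 29.7% for both Hspb6 and Cryab and 41.2% for Hspb7. Scaled by library totals the CV was 16.2% for Hsp90ab1, 15.8% for Hsp90aa1, 18.7% for Hspa8 and 16.8% for Bag3, so Hspa8 was then wider than Bag3. The inducible pair had 28.5% (Hspa1a) and 31.8% (Hspa1b) on the authors' size factors. Counting error alone gave these genes a CV of 0.438 to 7.78%, below the measured CV of each. The median CV of the 10 was 26.7%, against 15.6% over the 15135 genes with at least 10 counts in every mouse, and 7 of the 10 lay above that median. Hspb7 stood at percentile 96.8 of those genes and Hsp90ab1, on the authors' size factors, at percentile 14.1.

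**Figure D2:**
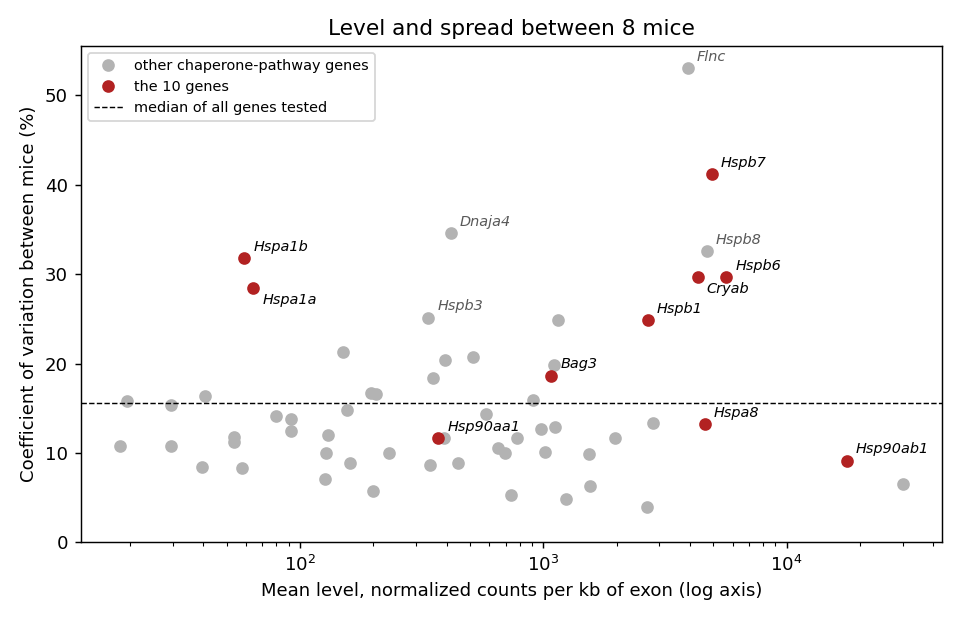
Mean level in normalized counts per kilobase (log axis) against the coefficient of variation over the 8 mice, with the 10 genes in red and other chaperone-pathway genes in grey. The small heat shock proteins lie to the upper right, Hspa8 and Hsp90ab1 lie to the right below the dashed median of 15.6%, and Flnc is the highest grey point at 53.1%.

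Mouse 5 had the highest value of 6 of the 10 genes, Hspa1b, Hspb1, Hspb6, Hspb7, Cryab and Bag3. It was highest for 15.9% of the 15135 genes that reached the count minimum and lowest for 14.6%, and highest for 13 and lowest for 9 of 50 genes of the chaperone pathway. Mouse 4 was highest for Hspa8 and Hsp90ab1 and at the same time lowest for Hspb6, so the families did not share an order of mice. Mice 1 and 8 were each lowest for 3 of the 10, and lowest for 13.8% and 20.7% of the 15135. The summed blood genes were also highest in mouse 5, at 28319.6 normalized counts against a lowest of 7059.6 in mouse 8, and their part in the values of mouse 5 was not tested.

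**Figure D3:**
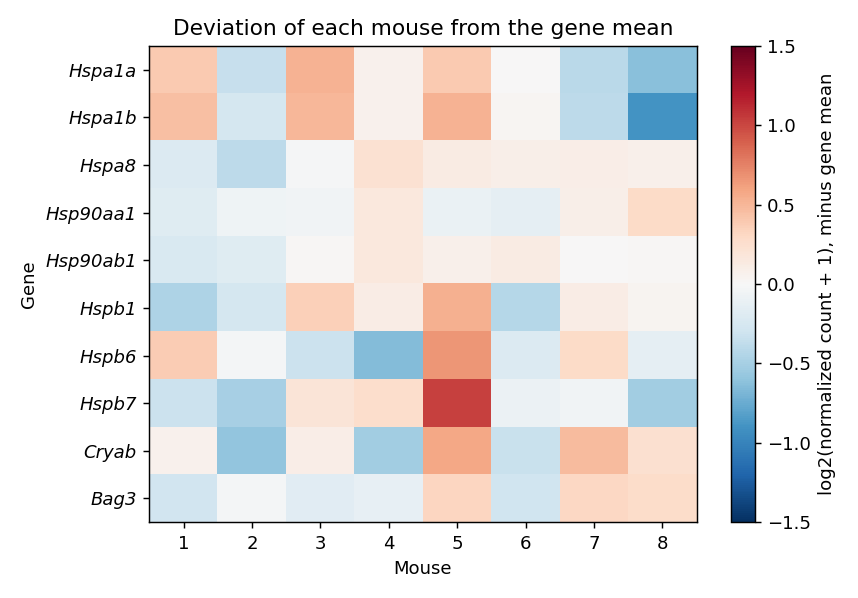
Each gene (rows) in each mouse (columns), coloured by log2(normalized count + 1) less the gene's mean over the 8 mice, red above and blue below. The column of mouse 5 is red for 9 of the 10 genes and the Hspa1a and Hspa1b rows match closely.

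Whether the chaperones moved together from mouse to mouse was measured in the 45 pairs, as Pearson's r of log2(normalized count + 1) over the 8 mice with an exact permutation of all 40320 pairings. Of the pairs, 35 had a positive r and the median r was 0.265. Neither value was computed for pairs drawn from all genes, and the 45 pairs reuse the same genes and mice. Whether the chaperones as a set moved together more than other genes therefore cannot be read from that count or median. Only Hspa1a and Hspa1b passed the adjusted threshold of 0.05, with r = 0.981 (exact p = 0.000124, adjusted p = 0.00558) and Spearman's rho = 0.976 (exact p = 0.000397). Leaving out mice 3 and 8, the farthest from the median of Hspa1a, gave r = 0.992. Since the pair shares sequence, these counts are not independent.

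Hspa8 and Hsp90ab1, the constitutive forms of their families, had r = 0.909 (exact p = 0.00461, adjusted p = 0.104), rho = 0.786 (exact p = 0.0279) and r = 0.744 without mice 1 and 2. Scaled by library totals this pair passed (r = 0.945, exact adjusted p = 0.00614). The same scaling also raised r for the other pairs among Hspa8 and the HSP90 genes. It went from 0.392 to 0.744 for Hsp90aa1 and Hsp90ab1 and from 0.458 to 0.734 for Hspa8 and Hsp90aa1. Hspb1 and Hspb7 had r = 0.738 (exact p = 0.0296, adjusted p = 0.333), rho = 0.762 (exact p = 0.0368) and r = 0.874 without mice 1 and 6. Without mouse 5, the highest for both, r was 0.540 (exact permutation, adjusted p = 0.537). Hspb6 and Cryab, which bind each other in muscle, had r = 0.690 (exact p = 0.0603, adjusted p = 0.511), rho = 0.524 (exact p = 0.197) and r = 0.328 without mice 4 and 5, so that relation rests on those mice. Hspa1b and Hsp90aa1, both inducible, had a negative r of -0.755 (exact p = 0.0291, adjusted p = 0.333), with rho = -0.524 (exact p = 0.197), -0.463 without mice 5 and 8 and -0.173 under library totals.

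**Figure D4:**
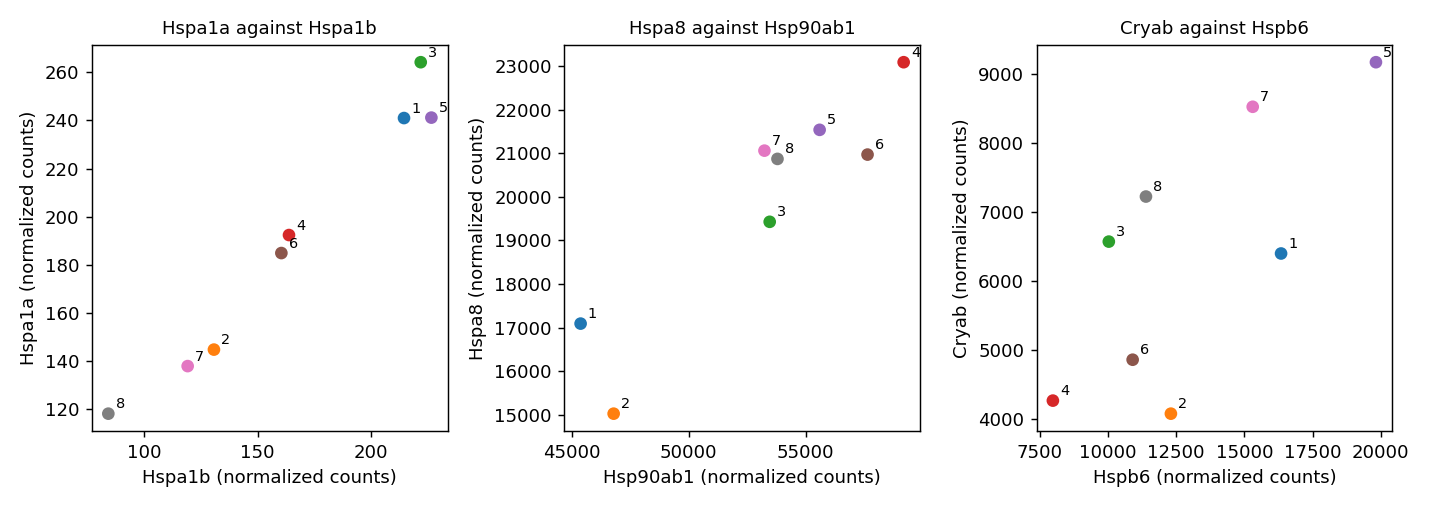
Normalized counts of 3 pairs of genes in the 8 mice, numbered and coloured by mouse. Hspa1a and Hspa1b lie along a line (r = 0.981), Hspa8 and Hsp90ab1 rise together with mice 1 and 2 low (r = 0.909), and Hspb6 and Cryab scatter more (r = 0.690).

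Because the design has 1 group, the rest of the transcriptome was read against the chaperones themselves. A slope, the log2 change of a gene for each log2 unit of the chaperone, was fitted across all genes with limma. On the summed Hspa1a and Hspa1b, 0 of the 8 other members and 0% of the 15133 genes tested passed an adjusted p of 0.05, while 1807 genes had an unadjusted limma p under 0.05 (896 without mouse 8 and 1174 without mouse 7). edgeR also called 0 genes (1688 at an unadjusted p under 0.05) and DESeq2 called 33 with a positive and 31 with a negative slope. On Cryab, limma called 0 of 9 members and 0% of 15134 genes, with 589 at an unadjusted p under 0.05. edgeR called 0 (610 unadjusted) and DESeq2 called 4 positive and 3 negative slopes.

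Among the members, Hspb7 had a slope of 0.69 (SE 0.28) on the inducible pair (limma adjusted p = 0.379). On Cryab, the limma fit gave Hspb6 a slope of 0.66 (SE 0.24) with an adjusted p of 0.994. Bag3 had a slope of 0.40 on Cryab (SE 0.17, limma unadjusted p of 0.0364). None of these passed. Without mouse 2, limma called 26 positive and 3 negative slopes on the inducible pair, none of them among the members or the pathway genes below.

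The partners of these chaperones were read from a list of 51 genes, of which 50 reached 10 counts in all mice. Cryaa, the lens crystallin, had 0 counts in every library. Of the 50, limma called 0 on either chaperone, with 7 (14%) at an unadjusted p under 0.05 on the inducible pair, against 11.9% of all genes tested, and 6 (12%) on Cryab, against 3.89%. These counts moved with single mice and with scaling. On the inducible pair 3 of 50 were under that p without mouse 7 (1174 of 15220 genes) and 3 without mouse 8 (896 of 15258), and on Cryab 2 of 50 without mouse 5, against 731 of 15165 genes. Under library totals 3 of 50 were under that p on Cryab, against 407 of 15134 genes, and 5 of 50 (10%) on the inducible pair, below the 16.4% of all genes. On the inducible pair 17 of 50 slopes (34%) were positive against 50.9% over all genes, with a median of -0.07 against 0.01. Under library totals, which shifted all genes, 37 of 50 (74%) were positive against 75.5% of all genes, with a median of 0.09 against 0.15. On Cryab 35 of 50 (70%) were positive against 50.1% of all genes, with a median of 0.08 against 0.00.

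The most abundant genes of each role were ranked per kilobase, and their values are given as normalized counts unless stated. Of the proteins that Bag3 and the small heat shock proteins guard, Des (desmin) had 113343 ± 7376 normalized counts and Flnc (filamin C) 36837 ± 19556. Flnc reached 77172 in mouse 5, and its CV of 53.1% was the widest of the list. Hspb8, the small heat shock protein that forms a complex with Bag3, had 9156 ± 2981 and a CV of 32.6%, and Hspb2 had 428 ± 88.8. Per kilobase of exon these were 4696 and 513. The mitochondrial HSP70 Hspa9 had 12229.8 ± 1634 and the endoplasmic reticulum HSP70 Hspa5 4701 ± 931.

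The J-domain proteins, which hand clients to HSP70, were led by Dnaja2 (7950.2 ± 312, CV 3.93%, the narrowest of the list) and Dnajb6 (5486 ± 871). The exchange factors that release clients were led by Bag1 (2654 ± 309, 1967 per kilobase) and Hspa4 (3860.5 ± 384, 698 per kilobase). Of the HSP90 partners, the mitochondrial form Trap1 had 3975 ± 391 and the myosin chaperone Unc45b 5583 ± 273. The mitochondrial chaperonins Hspd1 and Hspe1 had 4115 ± 257 and 1145 ± 133. Of the heat shock factors and their regulators, Hsbp1 had 1818 ± 231. Hsf4 (130.4 ± 15.7 per kilobase of exon) was the next by its mean but lay within the spread of Hsf2 (128 ± 12.7) and Hsf1 (127 ± 8.94), and by the longest transcript Hsf1 (287 ± 20.3) lay above Hsf4 (131 ± 15.8). Of the 16 genes named as the most abundant of their role, 14 held that place by the longest transcript. There Hsf1 replaced Hsf4 and Hsp90b1 replaced Unc45b. The median CV of the 50 genes was 11.9%, below the 26.7% of the 10.

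The genomic neighbours of the members gave the pathway slopes that DESeq2 alone called, and they are named here after their values were seen. Hspa1l, 546 bases from Hspa1a, had a slope of 0.50 (SE 0.11) on the inducible pair with an adjusted p of 0.333 in limma and 0.0222 in DESeq2. Hspb2, which overlaps Cryab, had a slope of 0.67 (SE 0.12) on Cryab with an adjusted p of 0.577 in limma and 0.00365 in DESeq2. Shared reads were not tested in either case.

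The genes whose levels were most like the inducible pair over the 8 mice, of 10988 whose mean reached 100 normalized counts, were Daam2 (r = 0.957), Thbs1 (r = 0.936) and Cpt1b (r = 0.929). Those most like Cryab were the pseudogene Gm7172 (r = 0.949), Oxa1l (r = 0.926) and Nr2f6 (r = 0.922). These are the highest of many values and carry no test.

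The members were also set against 7 lists of cell types and immediate early genes, which respond to handling and stress. Of the 70 relations, 3 had an exact permutation p under 0.05 and 0 passed after adjustment (smallest adjusted p = 0.563). Chance alone puts a share of about 0.05 under that threshold, and 3 of 70 lies below it. Under library totals 7 were under 0.05, above that share, and again 0 passed. The share over all genes was not computed, and the 3 relations below are given as values only. The summed endothelial genes ran from 3373 normalized counts in mouse 8 to 5096 in mouse 2, and the smooth muscle genes from 2402 in mouse 8 to 4062 in mouse 3. Endothelial genes and Hspa8 had r = -0.776 (exact p = 0.0190), rho = -0.548 (exact p = 0.171) and r = -0.694 without mice 2 and 8. Blood genes and Hspb7 had r = 0.745 (exact p = 0.0313) and rho = 0.595 (exact p = 0.132). Without mice 3 and 5 that r was 0.157, so it rested on those mice. Smooth muscle genes and Hsp90aa1 had r = -0.723 (exact p = 0.0422) and rho = -0.333 (exact p = 0.428), and r turned to 0.488 without mice 4 and 8. The part of these cell types in the chaperone levels was not tested.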

How the data were processed

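Poly(A) RNA-seq of immobilized muscle from 8 K14Q MOTS-c-treated mice was used. The authors trimmed reads with fastp, mapped them to GRCm38 with STAR, obtained gene counts with summarizeOverlaps and applied DESeq2 normalization. The deposited signal is therefore counts divided by 1 size factor per library, and 100% of values were whole reads within a tolerance of 0.01. Main values are the deposited ones, and recovered counts (23985356 to 33012497 per library) served for depth, filters, edgeR and DESeq2, although the design had assumed raw counts. Reads carry no molecular identifiers, so intervals cover counting error only. GENCODE M21 (GRCm38) gave symbols, positions and exon lengths for 55227 of 55487 genes.

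The 10 genes, the pathway and marker lists and the tests were chosen with earlier results of these data known. The text names the 10 genes, the 2 most abundant pathway genes per role, pathway genes called by limma (there were 0) and the 3 genes most like each covariate. Levels per kilobase were compared with exact sign-flip tests. Correlations used exact permutations. Slopes were fitted with limma (trend) on log2(normalized count + 1) over genes that reached 10 counts in each library, with Benjamini-Hochberg adjustment. The alternatives were TMM factors, library totals, a pseudocount of 5, a minimum of 1 count in any library, edgeR, DESeq2, the longest transcript and leaving out each mouse. Lengths without windows shared between genes were added after seeing the data. The labels do not state litters or cages, and each mouse is 1 library. Scripts were tested on simulated data. R 4.3.3, limma 3.58.1, edgeR 4.0.16, DESeq2 1.42.0, Python 3.11.15 and scipy 1.17.1 were used.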

Additional observations from a re-analysis of the deposited data

Results flagged for a closer look

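Of 32 sets of 8 values examined, 2 held a mouse whose gap to its neighbour exceeded the share of the range expected at the 95% level (Dixon's critical value 0.526), where chance gives about 1.6. Hspb7 in mouse 5 was 26256 normalized counts, with the next mouse at 15469 and the lowest at 8969, a gap of 0.624 of the range. The ratio of Hspa1a to Hspa1b per kilobase in mouse 8 was 1.33, with the next at 1.13 and the lowest at 1.01, a gap of 0.626 of the range. Mouse 8 also had the fewest counts of the pair, 185. Over the 50 pathway genes, most of them not named in the report, 3 held such a mouse where chance gives about 2.5, and in each it was mouse 5. It was highest for Dnaja4 (2753 normalized counts, a gap of 0.808 of the range) and Dnajb4 (1961, 0.623) and lowest for Hsph1 (972, 0.554).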

How the results depend on the processing

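No paired analysis was possible because the series has 1 group, and the ratios within mice compare genes, not groups. Of 287 tested values and counts of calls under alternatives, 268 kept their direction and their side of the threshold or, for counts, stayed within 1.5 times. The log2 ratio of Hspb7 to Hspa8 (0.02) became -0.43 with the longest transcript (exact permutation, adjusted p = 0.0402). It became -0.97 with shared windows taken off that length. On all exons it ran from -0.11 (without mouse 5) to 0.10 over the mice left out, with -0.01 without mouse 3. With shared windows taken off the length and counts unchanged, Hspa8 over Cryab was 0.73 and Cryab over Hspb1 0.12. Pairs of members past the threshold numbered 2 under library totals. Positive slopes on Hspa1a and Hspa1b numbered 1 under library totals, 1 with a minimum of 1 count, 33 with DESeq2 and 0 to 26 over the mice left out, the 26 without mouse 2. Negative slopes numbered 31 with DESeq2 and 0 to 3 over the mice left out. On Cryab, DESeq2 gave 4 positive and 3 negative slopes. The cause of these differences was not tested, except that the lengths themselves set the ratios per kilobase. Under library totals the CV of Hsp90ab1 was 16.2%. TMM factors shifted a library by at most 0.027 on the log2 scale, and library totals by -0.13 to 0.21. Among the 10 genes, depth limited Hspa1a and Hspa1b most, at 77 to 318 counts.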

Other observations

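Des, Flnc and Synpo2, which are clients or partners of Bag3 and the small heat shock proteins, were set against the 10 genes. This was done after the spread of Flnc had been seen, in 30 relations. Synpo2, synaptopodin-2, a Z-disc protein that takes part in Bag3-dependent autophagy of filamin, had r = 0.950 with Hspb6 over the 8 mice (exact permutation p = 0.000422, adjusted p = 0.0126). Its rho was 0.952 (exact p = 0.00114), r was 0.841 without mice 4 and 5, and leaving out each mouse gave 0.917 to 0.979. Flnc and Hspb7, which bind each other as proteins, had r = 0.888 (exact p = 0.00399, adjusted p = 0.0599) and rho = 0.786 (exact p = 0.0279). That r was 0.738 without mouse 5 and 0.566 without mice 4 and 5. The Synpo2 relation passed the adjusted threshold, and the other 29 did not. That adjustment covers only these 30 relations, which were chosen with the data seen, and not the other tests of this report. How many of all genes reach such an r with Hspb6 was not counted.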
